A study of Mus musculus with 4 samples.

Results

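Sox4 and 9 other genes of the Sox family of transcription factors were followed in brown fat of 2 control mice and 2 mice labelled as carrying a Sox4 deletion. The 10 genes were taken by symbol from the 55387 rows that each library lists. They were Sox4 as the targeted gene, its SoxC paralogs Sox11 and Sox12, the SoxF genes Sox7, Sox17 and Sox18 of the endothelium, the SoxD genes Sox5, Sox6 and Sox13, and the SoxE gene Sox9 of cartilage and other connective tissue. All 10 had a row in every library. Sox4 mRNA overlapped between the genotypes, and its mean was not lower in the pair labelled Sox4-MKO. Of the 8 members that were tested, limma called 1 at an unadjusted p under 0.05, against 16.2% of all genes. It was the endothelial factor Sox18, which was lower under that label, and the call was lost without Sox4f/f mouse 1 and without the library labelled Sox4-MKO mouse 2.

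Sox proteins share a high mobility group (HMG) box, a DNA-binding domain that enters the minor groove and bends the helix, and the family is divided into groups by the sequence of that box. SoxC proteins carry an activation domain and act in progenitor cells of many tissues, among them nerve, heart and developing lymphocytes. SoxF proteins act in blood and lymphatic endothelium, SoxD proteins lack a transactivation domain and work beside other factors, and Sox9 drives the cartilage programme together with Sox5 and Sox6.

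The controls carried the floxed allele without Cre (Sox4f/f, called WT in the sample labels). The mice labelled Sox4-MKO were littermates described as having the same floxed allele and a Cre recombinase under Myf5, which acts in the precursors of brown adipocytes and skeletal muscle. Endothelial and immune cells of the depot mostly lie outside that lineage. All 4 mice were males of 15 weeks, and 1 library was made from the brown fat of each. The labels name brown fat adipocytes as the cell type, but the RNA came from the whole depot. Which part of Sox4 the loxP sites flank is not given in the sources used here. Values are in FPKM, fragments per kilobase of transcript scaled to library depth, so levels of different genes are set side by side per length. Within a genotype, the value of mouse 1 is given before that of mouse 2. Differences between genotypes are log2 fold changes on the log2(FPKM + 1) scale, the libraries labelled Sox4-MKO minus Sox4f/f, which understates the change of low genes. They were tested with limma on the 12877 genes whose FPKM averaged over 1 in either genotype.

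The regulatory sequences upstream of the SoxC genes and of the Sox6 start next to an antisense gene are printed because they set the paralogs beside the targeted gene and show the neighbouring starts of Sox6 and Sox6os, whose levels are compared later. RefSeq (GRCm38.p6) gave a start for 6 of the 10 members. Each window holds the 250 bases before the start, written 5′ to 3′ on the strand of the gene, and the ends of the Sox4 and Sox12 windows reach a few bases into the first exon as GENCODE M21 draws it. Capitals mark CCAAT or its reverse ATTGG, the CCAAT box. AACAAAG or its reverse CTTTGTT, a Sox binding sequence, was searched too.
Sox4, chr13:28953700-28953949, minus strand: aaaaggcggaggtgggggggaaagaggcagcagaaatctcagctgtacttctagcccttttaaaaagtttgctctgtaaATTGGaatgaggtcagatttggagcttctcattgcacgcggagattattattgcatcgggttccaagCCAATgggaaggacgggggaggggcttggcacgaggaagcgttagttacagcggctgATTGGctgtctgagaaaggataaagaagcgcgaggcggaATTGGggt
Sox11, chr12:27342719-27342968, minus strand: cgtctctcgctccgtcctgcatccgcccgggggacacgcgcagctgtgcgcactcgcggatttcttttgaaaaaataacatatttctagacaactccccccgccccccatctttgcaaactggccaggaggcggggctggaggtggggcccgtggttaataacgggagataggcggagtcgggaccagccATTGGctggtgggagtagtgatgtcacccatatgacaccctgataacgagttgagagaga
Sox12, chr2:152398047-152398296, minus strand: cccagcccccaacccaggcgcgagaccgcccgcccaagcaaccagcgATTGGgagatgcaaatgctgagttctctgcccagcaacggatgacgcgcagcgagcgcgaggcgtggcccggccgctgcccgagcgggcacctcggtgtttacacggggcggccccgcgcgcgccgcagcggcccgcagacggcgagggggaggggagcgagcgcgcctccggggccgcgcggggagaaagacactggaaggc
Sox6, chr7:116031048-116031297, minus strand: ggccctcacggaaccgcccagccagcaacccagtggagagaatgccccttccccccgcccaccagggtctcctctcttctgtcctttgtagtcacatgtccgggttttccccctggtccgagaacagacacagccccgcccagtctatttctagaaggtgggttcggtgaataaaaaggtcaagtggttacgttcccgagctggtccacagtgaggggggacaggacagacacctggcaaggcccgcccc
Sox6os, chr7:116031729-116031978, plus strand: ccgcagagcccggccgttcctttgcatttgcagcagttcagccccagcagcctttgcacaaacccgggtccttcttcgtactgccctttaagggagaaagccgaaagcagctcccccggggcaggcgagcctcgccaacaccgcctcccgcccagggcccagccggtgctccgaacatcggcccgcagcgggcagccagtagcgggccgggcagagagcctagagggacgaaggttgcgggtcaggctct

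The Sox4 window held 4 CCAAT boxes, the Sox11 and Sox12 windows 1 each, and the Sox6 and Sox6os windows 0. The last Sox4 match lies in the bases that GENCODE M21 draws as first exon. A CCAAT box on either strand was present in 33.8% of 32851 windows of the same length before RefSeq starts. AACAAAG or CTTTGTT was in 0 of the 5 printed windows, so no match of one motif overlapped the other, and it was present in 5.0% of all windows. RefSeq gives Sox6 6 starts, however, and of their windows 3 held AACAAAG or CTTTGTT and 2 held a CCAAT box, none of these being the one printed. GC content was 50.8% for Sox4, 58.0% for Sox11 and 74.4% for Sox12. The SoxC paralogs thus had upstream windows of unlike base composition.

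The study measured Sox4 mRNA by quantitative PCR with a primer pair that is shown because it places that assay on the transcript. The PCR values were not analysed here.
mSox4-F, sense, chr13:28952381-28952399: cggctgcatcgttctctcc
mSox4-R, antisense, chr13:28952234-28952253: cgcttcactttcttgtcggc

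The Sox4 gene (ENSMUSG00000076431) lies at chr13:28948919-28953713 on the minus strand of GRCm38 and has 1 exon of 4795 nt (GENCODE M21). Its coding sequence covers 1320 nt, from position 693 to 2012 of the transcript. Both primers matched inside it, at positions 1315 to 1333 and 1461 to 1480, and bound a product of 166 nt. The FPKM value is 1 number for the whole transcript, so it does not separate the coding sequence from the rest. Sox4 overlaps the gene Gm26735 on the other strand, which had no row in these libraries.

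Depth was estimated at 12200000 to 16300000 fragments per library from the lowest values of 6741 genes with 1 annotated transcript, and between 18593 and 19389 rows were above 0. The library labelled Sox4-MKO mouse 1 stood apart in its skeletal muscle transcripts. Summed over 12 muscle markers the level was 199.6 and 738.7 FPKM in Sox4f/f mice 1 and 2, 13720 FPKM in the library labelled Sox4-MKO mouse 1 and 2769 FPKM in that of mouse 2. Brown adipocyte markers were present in all libraries, with sums over 10 genes of 8182 and 7947 FPKM in Sox4f/f and 4182 and 4808 FPKM in the other pair. Ucp1, the uncoupling protein of heat production, lay between 733 and 1935 FPKM. At an unadjusted p under 0.05 limma called 2090 genes, of which 1066 were lower and 1024 higher under the Sox4-MKO label. After rescaling each library without mitochondrially encoded genes and Ucp1, 746 of 2068 called genes were lower. After Benjamini-Hochberg adjustment limma called 0 genes, and the lowest adjusted value was 0.191. For 1 gene alone, exact two-sided permutation of 2 against 2 mice reaches no p below 0.333.

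The members spanned a wide range of levels. Sox18 was highest, with a mean of 38.1 FPKM over the 4 libraries and a range of 25.5 to 54.6 FPKM. It was followed by Sox6 with a mean of 18.4 FPKM and Sox17 with 14.9 FPKM, whose ranges overlapped. Sox7 (mean 7.16 FPKM), Sox13 (5.92 FPKM) and Sox5 (4.73 FPKM) came next, and each overlapped its neighbour in this order. Sox4 (1.77 FPKM) and Sox9 (1.40 FPKM) overlapped each other and lay below the lowest Sox5 value of 3.74 FPKM. Sox12 (0.461 FPKM) and Sox11 (0.170 FPKM) were lowest, with overlapping ranges. The most abundant Sox mRNA of this tissue sample was therefore an endothelial one, and all 3 SoxC mRNAs were among the 4 lowest members.

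**Figure D1:**
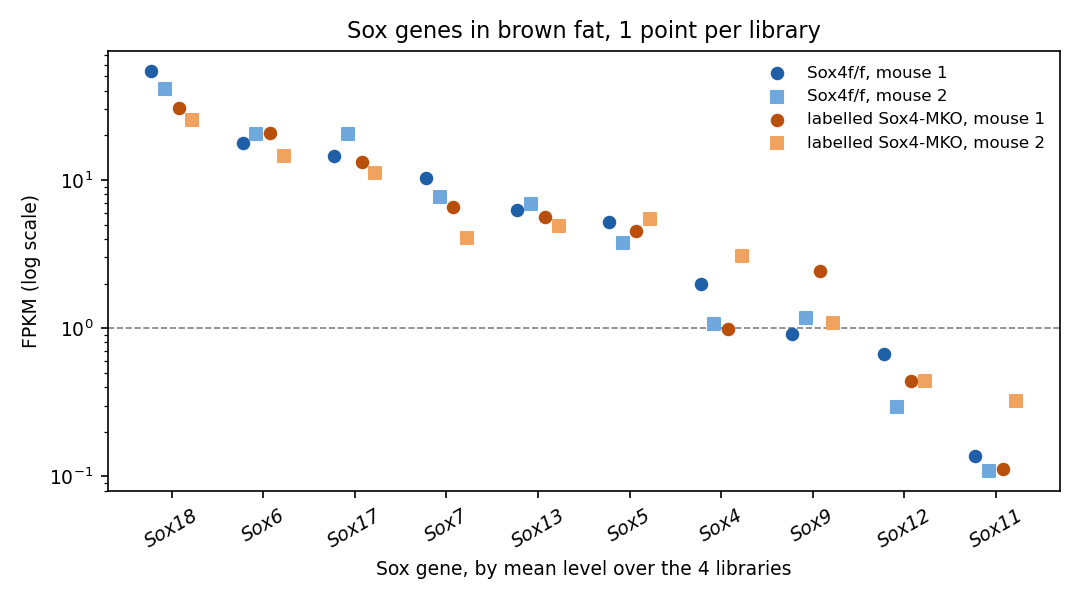
FPKM (log scale) of the 10 Sox genes, 1 point per library, with genes ordered by their mean over the 4 libraries; circles are mouse 1 and squares mouse 2 of each genotype, and the dashed line marks 1 FPKM. Sox18 lies between 25.5 and 54.6 FPKM in all libraries, whereas Sox4 runs from 0.981 to 3.06 FPKM with both ends in libraries labelled Sox4-MKO.

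Of the 10 members, 8 passed the filter on low values, and Sox11 and Sox12 did not. At an unadjusted p under 0.05, 1 of the 8 was called, Sox18, against 16.2% of all genes tested, or 8.28% for genes called lower and 7.95% for genes called higher. The 2 Sox4f/f values lay above the other 2 for 4 of the 8, namely Sox7, Sox13, Sox17 and Sox18. Over all genes tested the genotypes did not overlap for 51.3%, with 29.6% lower and 21.7% higher. Of the 8 log2 fold changes, 5 were negative and their median was -0.20, against -0.05 over all genes tested. After Benjamini-Hochberg adjustment over all genes tested 0 members had an adjusted p under 0.05 (limma). The library labelled Sox4-MKO mouse 2 held the lowest value of 5 members and the highest of 3.

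**Figure D2:**
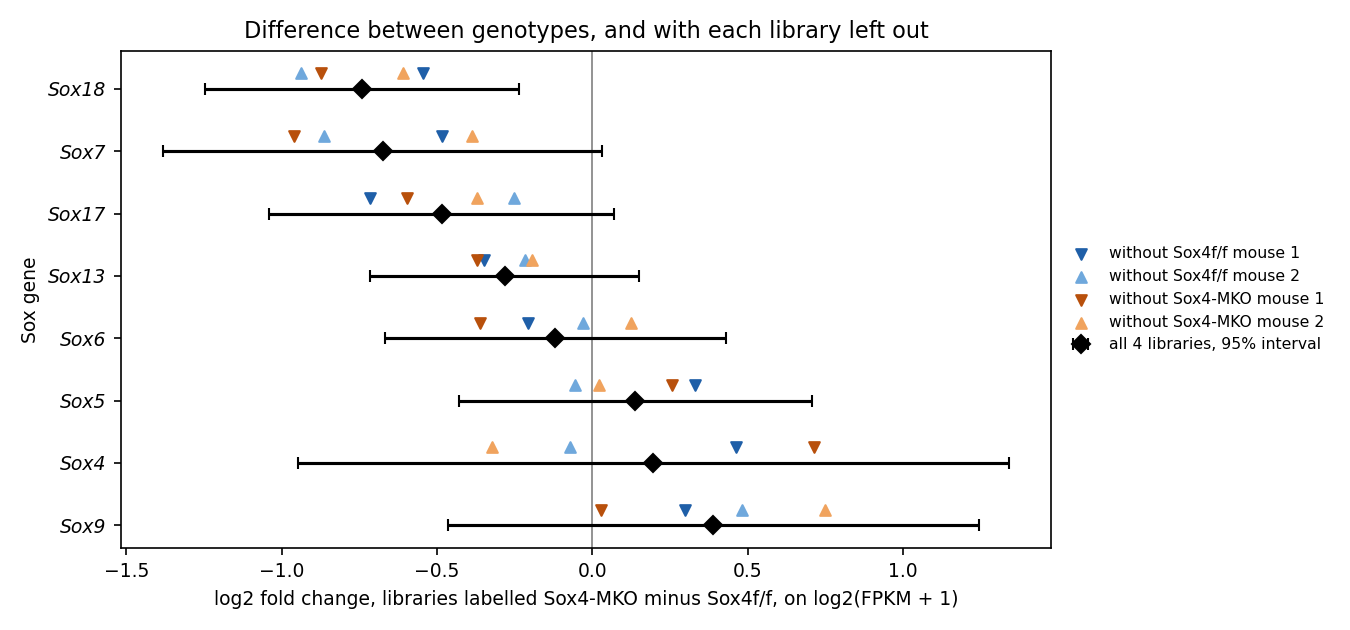
Log2 fold change of the 8 tested Sox genes, libraries labelled Sox4-MKO minus Sox4f/f, on log2(FPKM + 1); diamonds with bars are the fit of all 4 libraries with its 95% interval, and triangles are the fits without 1 library each. The interval of Sox18, from -1.25 to -0.24, is the only one of the 8 that leaves out 0, and the triangles of Sox4 lie on both sides of 0, from -0.32 to 0.71.

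Sox4 had 1.98 and 1.06 FPKM in Sox4f/f mice 1 and 2, and 0.981 and 3.06 FPKM in the pair labelled Sox4-MKO. The highest and the lowest value both carried the Sox4-MKO label, and the genotypes overlapped. The means were 1.52 ± 0.65 FPKM in Sox4f/f, against 2.02 ± 1.47 FPKM in the pair labelled Sox4-MKO (SD, n = 2 each). The log2 fold change was 0.20 (SE 0.43, 95% interval -0.95 to 1.34), with an adjusted p of 0.843 by limma. Deleted and control labels could not be told apart by the FPKM of this transcript, and the interval holds both a lower and a higher level. The study reported much less SOX4 protein in brown fat of younger Sox4-MKO mice, by Western blots that were not analysed here. The direction rested on single libraries, since the value was -0.32 without the library labelled Sox4-MKO mouse 2 and -0.07 without Sox4f/f mouse 2. It was 0.46 without Sox4f/f mouse 1 and 0.71 without the library labelled Sox4-MKO mouse 1.

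The spread of Sox4 was larger than counting error. The 4 values rested on about 130, 62, 59 and 240 fragments. The exact Poisson 95% interval was 2.69 to 3.48 FPKM in the library labelled Sox4-MKO mouse 2, above that of Sox4f/f mouse 1, which was 1.65 to 2.35 FPKM. The intervals of Sox4f/f mouse 2 (0.813 to 1.36 FPKM) and of the library labelled Sox4-MKO mouse 1 (0.747 to 1.265 FPKM) overlapped each other. Mice of 1 genotype therefore differed in Sox4 by more than their counts allow, in both genotypes. These intervals cover counting error only and depend on the estimated depth, which was least certain for the library labelled Sox4-MKO mouse 2. In bulk tissue, fewer cells of a type and less RNA per cell cannot be told apart.

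Sox11 (chr12:27334264-27342574, minus strand), a SoxC factor known from neural and mesenchymal progenitors, had 0.136 and 0.108 FPKM in Sox4f/f mice 1 and 2, and 0.113 and 0.323 FPKM in the pair labelled Sox4-MKO. These values came from about 16, 11, 12 and 44 fragments. As for Sox4, the highest value was in the library labelled Sox4-MKO mouse 2. Its exact Poisson interval of 0.235 to 0.434 FPKM lay above those of the other 3 libraries at the depth taken. That library had 4 candidate values for 1 fragment, against 1 or 2 in the others, and the lowest was used. A higher one would give fewer fragments and a wider interval, so this separation is uncertain. Its log2 fold change without the limit on averaged FPKM was 0.11 (SE 0.11). Sox12 (chr2:152393611-152398063, minus strand), the third SoxC gene, had 0.670 and 0.295 FPKM in Sox4f/f and 0.441 and 0.437 FPKM in the other pair. Its Sox4f/f values lay on both sides of the other 2, and the log2 fold change without the limit was -0.03 (SE 0.17). Neither paralog had an unadjusted p under 0.05 in that fit, and both stayed below 1 FPKM in every library.

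The genes with the profile closest to that of Sox4 over the 4 libraries were Nkg7, a granule protein of cytotoxic lymphocytes, Ly6c2, a surface protein of monocytes and memory T cells, Tyw3, an enzyme of transfer RNA modification, Resf1, a factor of retroelement silencing, and Cd2, an adhesion molecule of T and natural killer cells. Likeness was the root mean square difference of log2(FPKM + 1) after each gene's mean was removed, over 4 libraries and 12877 genes, and it was 0.036 for Nkg7 and 0.099 for Cd2. Nkg7 had 4.13, 2.59, 2.56 and 5.81 FPKM in Sox4f/f mice 1 and 2 and the libraries labelled Sox4-MKO mice 1 and 2. Resf1 had 17.96, 11.31, 9.53 and 22.54 FPKM in the same order. Each of the 5 was highest in the library labelled Sox4-MKO mouse 2 and second in Sox4f/f mouse 1. With 4 points and so many genes compared, close profiles are a description of these libraries.

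**Figure D3:**
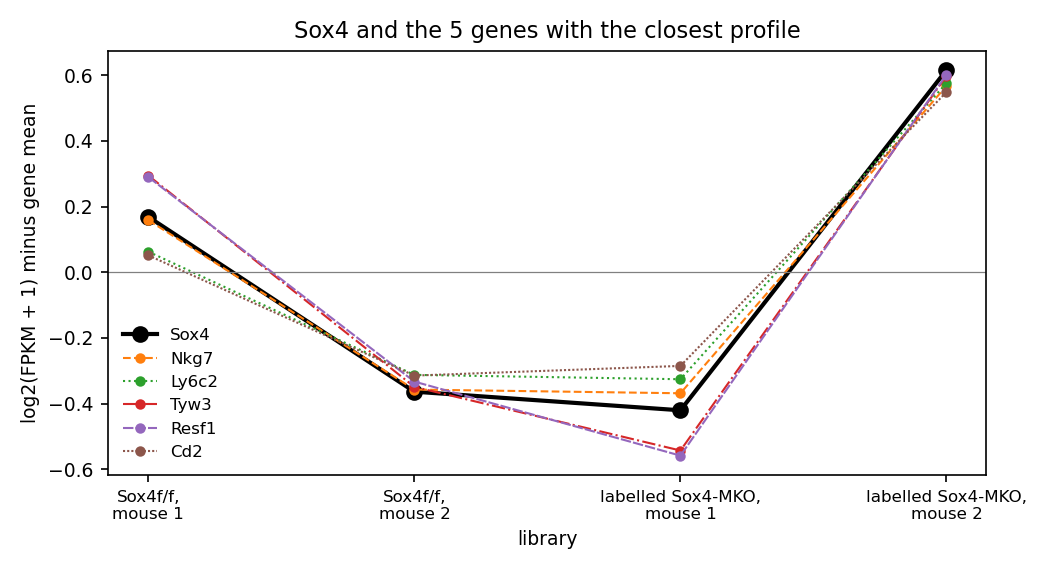
Centred log2(FPKM + 1) of Sox4 (black) and the 5 genes with the closest profile, with 1 point per library and lines that only join the points of 1 gene. All 6 are highest in the library labelled Sox4-MKO mouse 2 and lie below their mean in Sox4f/f mouse 2 and the library labelled Sox4-MKO mouse 1.

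Lymphocyte markers are given beside Sox4. The 12 B and T lymphocyte markers summed to 8.84 and 6.64 FPKM in Sox4f/f mice 1 and 2, and to 4.18 and 11.5 FPKM in the pair labelled Sox4-MKO. The libraries thus had the same order as for Sox4. Of the 12, 3 passed the filter, Lck, Cd3e and Cd3g. Limma called 0 of them at an unadjusted p under 0.05, against 16.2% of all genes tested. Rag1, which marks developing lymphocytes, was listed at 0 in every library. The part of such cells in the Sox4 values was not tested.

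Sox18 (chr2:181669836-181671640, minus strand), which acts in developing blood and lymphatic vessels, had 54.6 and 41.4 FPKM in Sox4f/f mice 1 and 2 and 30.8 and 25.5 FPKM in the pair labelled Sox4-MKO. Both Sox4f/f values lay above both others. The Sox4f/f mean was 47.98 ± 9.36 FPKM and that of the other pair 28.2 ± 3.79 FPKM (SD, n = 2 each), and the log2 fold change was -0.74 (SE 0.19, limma adjusted p = 0.227). The values rested on about 1210, 815, 629 and 673 fragments, and the exact Poisson interval of Sox4f/f mouse 2, 38.6 to 44.3 FPKM, lay above that of the library labelled Sox4-MKO mouse 1, 28.5 to 33.3 FPKM. The unadjusted call was lost without Sox4f/f mouse 1, with a log2 fold change of -0.55, and without the library labelled Sox4-MKO mouse 2, with -0.61. Without the library labelled Sox4-MKO mouse 1, the one rich in muscle transcripts, it was -0.87 and the call held.

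Sox7 (chr14:63943673-63950732, plus strand), which acts in early endothelial and arterial development, had 10.3 and 7.68 FPKM in Sox4f/f and 6.57 and 4.09 FPKM in the pair labelled Sox4-MKO. The genotypes did not overlap and the libraries had the same order as for Sox18. Its log2 fold change of -0.67 (SE 0.27) did not reach the unadjusted threshold (limma adjusted p = 0.320). It was -0.96 without the library labelled Sox4-MKO mouse 1, which passed the unadjusted threshold, and -0.39 without that of mouse 2, which did not. Sox7 also passed it with quantile normalization or with medians made equal.

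Sox17 (chr1:4490931-4497354, minus strand), a factor of arterial endothelium, had 14.6 and 20.5 FPKM in Sox4f/f mice 1 and 2 and 13.2 and 11.1 FPKM in the pair labelled Sox4-MKO. The genotypes did not overlap, but Sox4f/f mouse 1 and the library labelled Sox4-MKO mouse 1 lay close together. Here Sox4f/f mouse 2 was highest, in contrast to Sox18 and Sox7. The log2 fold change was -0.48 (SE 0.21, limma adjusted p = 0.347). It missed the unadjusted threshold with all libraries, passed it at -0.72 without Sox4f/f mouse 1, and was -0.25 without Sox4f/f mouse 2.

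Markers of blood endothelium had mostly lower values too. All 15 were tested, none was listed at 0, and their sum was 461.6 and 545.5 FPKM in Sox4f/f mice 1 and 2 against 324.8 and 402.8 FPKM in the pair labelled Sox4-MKO. Of the 15, 12 had a negative log2 fold change, the median was -0.33 against -0.05 over all genes tested, and limma called 3 at an unadjusted p under 0.05, all lower, or 20.0% against 8.28% of all genes called lower. For 8 of the 15 the genotypes did not overlap, all lower, or 53.3% against 29.6% of all genes. The 3 called were Egfl7, a secreted endothelial factor, with a log2 fold change of -0.70 (SE 0.11, limma adjusted p = 0.196), and Robo4 and Tie1, receptors of endothelial cells that were named after their values were seen. Cdh5, the cadherin of endothelial junctions, had 43.8 and 59.8 FPKM in Sox4f/f and 32.7 and 51.7 FPKM in the other pair, and its genotypes overlapped. Pecam1, the adhesion molecule CD31, had 35.6 and 41.6 FPKM against 33.6 and 36.3 FPKM, which overlapped too. The part of endothelial cells in the SoxF values was not tested.

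The log2 fold changes of the markers ran from -1.07 to 0.30. Of the 15, 1 had a lower value than Sox18, 2 had a lower value than Sox7 and 4 had a lower value than Sox17. The marker below Sox18 was Cldn5 at -1.07, whose genotypes overlapped. Cldn5 is itself known as a SoxF target and is part of the marker mean used next. The markers are thus not fully separate from the SoxF genes. Set against the mean log2(FPKM + 1) of the 15 markers in the same library, Sox18 was at 1.26 and 0.62 in Sox4f/f and at 0.84 and 0.22 in the pair labelled Sox4-MKO. Sox7 was at -1.03 and -1.67 against -1.24 and -2.16, and Sox17 at -0.57 and -0.36 against -0.33 and -0.91. On this scale the genotypes overlapped for all 3 SoxF genes. The mean differences were -0.41 for Sox18, -0.34 for Sox7 and -0.15 for Sox17, given without a test.

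**Figure D4:**
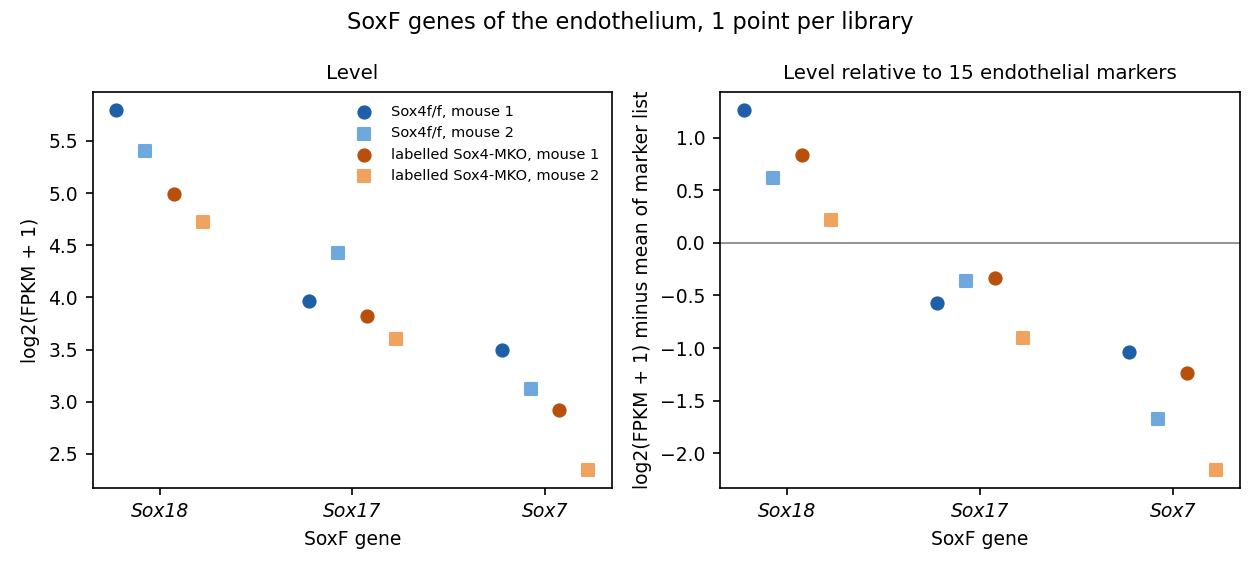
SoxF genes by library: left, log2(FPKM + 1); right, the same minus the mean log2(FPKM + 1) of 15 blood endothelial markers in that library; circles are mouse 1 and squares mouse 2 of each genotype. On the left both Sox4f/f points lie above both others for each gene, and on the right the genotypes overlap for all 3 genes, for Sox18 at 1.26 and 0.62 against 0.84 and 0.22.

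Lymphatic endothelium, where Sox18 acts upstream of Prox1 in the embryo, gave low values. Prox1, the defining lymphatic factor, was below the limit at 0.0343 and 0.0579 FPKM in Sox4f/f and 0.600 and 0.173 FPKM in the pair labelled Sox4-MKO. Prox1 is also expressed in muscle, and its libraries had the same order as the skeletal muscle sums of 199.6, 738.7, 13720 and 2769 FPKM. Prox1 was not tested, and no direction is drawn from it. The 7 lymphatic markers summed to 8.69 and 11.1 FPKM against 19.9 and 13.03 FPKM. Of the 4 that were tested, limma called 1 at an unadjusted p under 0.05, Pdpn, which was higher and is also made by fibroblasts. Over all genes tested 7.95% were called higher. Lyve1, which macrophages express too, had 2.82 and 3.62 FPKM in Sox4f/f and 10.7 and 4.66 FPKM in the other pair and made up much of the sum. The 7 macrophage markers summed to 124 and 194.9 FPKM against 263.3 and 268.7 FPKM. Of these, limma called 5 at an unadjusted p under 0.05, all higher, or 71.4% against 7.95% of all genes. The part of macrophages, fibroblasts and muscle in these values was not tested.

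Among the SoxD genes, Sox13 (chr1:133382303-133424377, minus strand) had 6.24 and 6.93 FPKM in Sox4f/f and 5.63 and 4.86 FPKM in the pair labelled Sox4-MKO. The genotypes did not overlap, by a narrow gap, and the log2 fold change of -0.28 (SE 0.16) did not reach the unadjusted threshold either (limma adjusted p = 0.450). Over all fits it stayed between -0.37 and -0.19. Sox6, which is known from slow muscle, red cell and cartilage development, had 17.8 and 20.3 FPKM in Sox4f/f and 20.8 and 14.6 FPKM in the pair labelled Sox4-MKO. The 2 labelled Sox4-MKO libraries held its highest and its lowest value, and the log2 fold change was -0.12 (SE 0.21, limma adjusted p = 0.797). It turned to 0.12 without the library labelled Sox4-MKO mouse 2. Sox5 (chr6:143828425-144781977, minus strand), the partner of Sox6 in cartilage, had 5.20 and 3.74 FPKM against 4.50 and 5.47 FPKM, with overlap and a log2 fold change of 0.14 (SE 0.22, limma adjusted p = 0.770). It was -0.055 without Sox4f/f mouse 2, so neither Sox5 nor Sox6 had a direction that held over the libraries.

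The antisense gene Sox6os, chosen after its values were seen, was lower without overlap where Sox6 overlapped. It lies at chr7:116031979-116032550 on the plus strand of GRCm38 inside Sox6, which spans chr7:115470872-116038796 on the minus strand. Its start is 932 nt from the nearest Sox6 start at a lower coordinate, that of the Sox6 window printed above. Its 2 exons overlap 0 Sox6 exons. It had 20.2 and 18.8 FPKM in Sox4f/f and 14.8 and 10.004 FPKM in the pair labelled Sox4-MKO. The log2 fold change was -0.64 (SE 0.21, limma adjusted p = 0.273). Over all 14 fits it ran from -0.90 to -0.37, and the unadjusted p was under 0.05 in 11. The ratio of Sox6os to Sox6 FPKM was 1.13 and 0.926 in Sox4f/f and 0.713 and 0.684 in the pair labelled Sox4-MKO. The values rested on only 69 to 116 estimated fragments. At 420 nt the transcript is far shorter than the 1500 nt minimum used to estimate depth, so these fragment numbers are uncertain. Whether the counting used strand is not given in the sources used here, and without it antisense and intronic sense reads cannot be told apart.

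Sox9 (chr11:112782224-112787760, plus strand), the SoxE factor of cartilage and tendon progenitors, had 0.914 and 1.17 FPKM in Sox4f/f mice 1 and 2 and 2.43 and 1.08 FPKM in the pair labelled Sox4-MKO. The high value came from 1 library, that of Sox4-MKO mouse 1, which was also the one rich in muscle transcripts. The means were 1.04 ± 0.18 FPKM and 1.75 ± 0.95 FPKM (SD, n = 2 each), and the log2 fold change was 0.39 (SE 0.32, limma adjusted p = 0.577). It was 0.03 without the library labelled Sox4-MKO mouse 1 and 0.75 without that of mouse 2, where it passed the unadjusted threshold. The cartilage and tendon markers were low. Their 15 genes summed to 2.71 and 4.62 FPKM in Sox4f/f and to 6.14 and 3.36 FPKM in the other pair, 1 passed the filter (Col11a2), and Col9a1, Chad and Matn1 were listed at 0 in all libraries. The tendon genes Scx, Fmod, Tnmd and Mkx, named after their values were seen, were highest in the library where Sox9 was highest. None of them passed the filter. Scx, a tendon transcription factor, had 0.0668 and 0.155 FPKM in Sox4f/f and 1.29 and 0.652 FPKM in the other pair. Fmod, a tendon proteoglycan, had 0.225 and 0.379 against 0.850 and 0.378 FPKM, and Tnmd and Mkx were also highest in the library labelled Sox4-MKO mouse 1. Other genes of the list did not all share this. Col11a2 was highest in Sox4f/f mouse 2 at 3.88 FPKM and lowest in the library labelled Sox4-MKO mouse 2 at 1.62 FPKM. Acan was highest in Sox4f/f mouse 2 at 0.0734 FPKM. Col11a1 was highest in the library labelled Sox4-MKO mouse 2 at 0.204 FPKM. The part of tendon genes in the Sox9 values was not tested.

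Fibroblast and connective tissue markers were higher in the pair labelled Sox4-MKO, whereas Sox5, Sox6, Sox9 and Sox13 were not called in either direction. The 13 markers summed to 411 and 455.7 FPKM in Sox4f/f mice 1 and 2 and to 969.3 and 881.8 FPKM in the other pair, without overlap. All 13 had a positive log2 fold change with a median of 0.99, and limma called 12 at an unadjusted p under 0.05. That was 92.3%, against 7.95% of all genes called higher. Col3a1, a fibrillar collagen, had 85.8 and 91.1 FPKM in Sox4f/f and 242.1 and 221.1 FPKM in the pair labelled Sox4-MKO. The mean log2(FPKM + 1) of these markers was 4.37 and 4.38 in Sox4f/f and 5.34 and 5.29 in the other pair, a shift of 0.94, so a gene at a steady level is lower when set against it. On that relative scale 6 of the 7 members outside the SoxF group were lower without overlap, all but Sox4. The share of all genes on this scale was not computed. The count therefore describes the shift of the markers and shows nothing particular to the Sox genes. Sox13 was at -1.51 and -1.39 in Sox4f/f and at -2.61 and -2.73 in the other pair. Sox6 was at -0.13 and 0.03 against -0.89 and -1.32. Sox4 was at -2.79 and -3.34 against -4.35 and -3.26, and its genotypes overlapped. The part of connective tissue in these values was not tested.

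**Figure D5:**
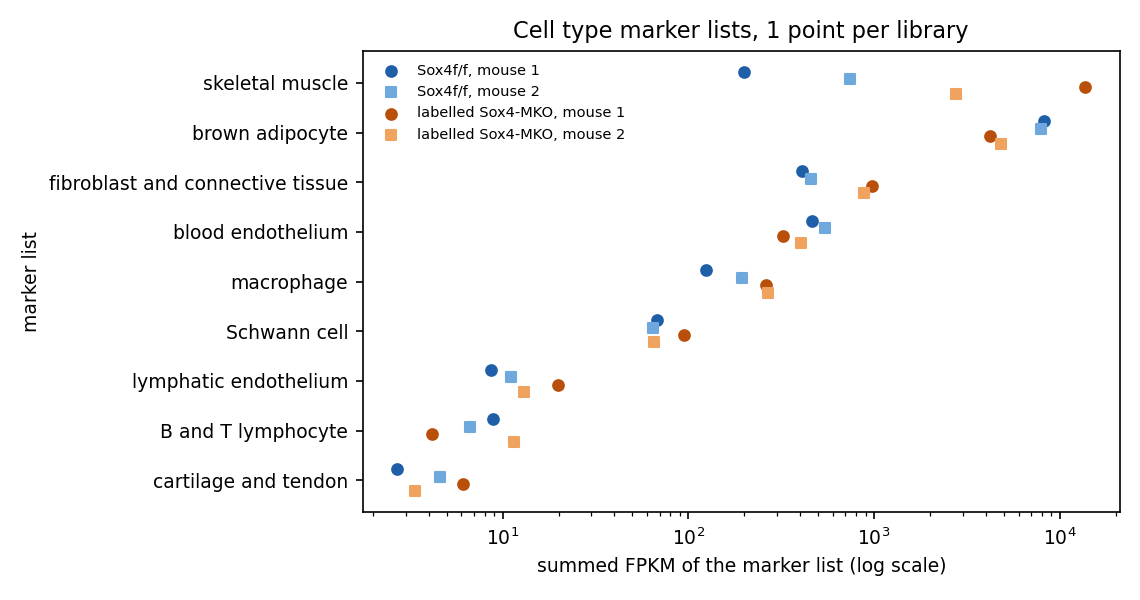
Summed FPKM (log scale) of 9 cell type marker lists, 1 point per library; circles are mouse 1 and squares mouse 2 of each genotype. Skeletal muscle runs from 199.6 to 13720 FPKM and fibroblast markers from 411 to 969.3 FPKM, both higher in the pair labelled Sox4-MKO, whereas blood endothelial and brown adipocyte markers are lower there.

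The other Sox genes of the mouse gave little signal, and 0 of these 10 passed the filter. Sox10, the SoxE factor of Schwann cells and melanocytes, was the highest with 0.758 and 0.577 FPKM in Sox4f/f and 0.992 and 0.473 FPKM in the pair labelled Sox4-MKO, which overlapped. Schwann cell markers were present beside it, with a sum of 67.6 and 64.8 FPKM against 94.3 and 65.3 FPKM. Limma called 0 of the 6 tested at an unadjusted p under 0.05, against 16.2% of all genes. Sox30 lay between 0.0441 and 0.178 FPKM, and Sox8 between 0 and 0.0634 FPKM. Sox2 (0.0248 FPKM) and Sox21 (0.0132 FPKM) were above 0 in the library labelled Sox4-MKO mouse 2 alone. Sox1, Sox3, Sox14, Sox15 and Sry were listed at 0 in all 4 libraries.

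Outside the Sox family, 18 of 24 other HMG-box genes were tested. Of these, 13 had a negative log2 fold change, with a median of -0.07, and limma called 2 at an unadjusted p under 0.05, both lower. That was 11.1%, against 16.2% of all genes called in either direction and 8.28% called lower. Ubtf, which serves RNA polymerase I at the ribosomal RNA genes, had 30.7 and 29.1 FPKM in Sox4f/f and 19.2 and 20.1 FPKM in the pair labelled Sox4-MKO, a log2 fold change of -0.58 (SE 0.12, limma adjusted p = 0.210). Hmg20b, a subunit of a chromatin corepressor, had 36.8 and 39.5 FPKM against 27.0 and 26.8 FPKM, with a log2 fold change of -0.49 (SE 0.12, limma adjusted p = 0.216). Hmgb1, the most abundant of the list, had 89.0 and 86.5 FPKM against 94.4 and 90.4 FPKM, with a log2 fold change of 0.07 (SE 0.11, limma adjusted p = 0.755). Hbp1, a repressor of cell cycle genes, overlapped between the genotypes at 38.6 and 31.7 against 29.8 and 34.1 FPKM.

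Of 13 genes known as targets of Sox factors in various tissues, 7 were tested, 6 had a negative log2 fold change, and limma called 2 lower and 1 higher at an unadjusted p under 0.05. The called shares over all genes tested were 8.28% lower and 7.95% higher. Ebf2, the brown fat fate factor that the study places under Sox4, had 24.4 and 25.6 FPKM in Sox4f/f and 17.1 and 17.8 FPKM in the pair labelled Sox4-MKO. The genotypes did not overlap, and the log2 fold change of Ebf2 was -0.50 (SE 0.12, limma adjusted p = 0.219). The study had reported lower Ebf2 from the same RNA sequencing, so this call is not independent of it. The same holds for the list counts above, which include Ebf2. The library labelled Sox4-MKO mouse 2 had the highest Sox4 and an Ebf2 level close to that of mouse 1. The relation of Ebf2 to Sox4 was not tested. The study drew that link from binding, reporter and rescue experiments, which were not analysed here. Notch1, a receptor of arterial endothelium and many other cells, had 10.4 and 10.5 FPKM against 7.201 and 6.98 FPKM, with a log2 fold change of -0.50 (SE 0.14, limma adjusted p = 0.232). Its ligand Dll4, known as a SoxF target in arteries, had 11.5 and 6.57 FPKM against 5.46 and 3.68 FPKM, with a log2 fold change of -0.82 that did not reach the unadjusted threshold (SE 0.32, limma adjusted p = 0.313). Its libraries had the same order as those of Sox18 and Sox7.

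The claudin Cldn5, a SoxF target at endothelial junctions, also belongs to the blood endothelial markers above. It had 28.9 and 77.7 FPKM in Sox4f/f mice 1 and 2 and 14.0 and 34.6 FPKM in the pair labelled Sox4-MKO. In each genotype mouse 2 was the higher, and the genotypes overlapped, with a log2 fold change of -1.07 (SE 0.63, limma adjusted p = 0.451). Vcam1, an adhesion molecule named after its values were seen, had 4.56 and 4.41 FPKM against 7.24 and 7.29 FPKM, with a log2 fold change of 0.59 (SE 0.15, limma adjusted p = 0.222). Tead2, a SoxC target in embryonic mesenchyme and likewise named after its values were seen, had 5.25 and 2.33 FPKM against 3.17 and 2.32 FPKM, which overlapped (log2 fold change -0.30, SE 0.36, limma adjusted p = 0.706). Members of the list thus stood on both sides of 0, and Tead2 like Sox4 gave no separation of the genotypes.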

How the data were processed

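RNA was sequenced from brown fat of 2 mice labelled Sox4f/f and 2 labelled Sox4-MKO, with 1 library for each mouse. The labels describe column extraction with DNase and a stranded mRNA kit, whereas the methods describe TRIzol and a TruSeq kit, and sequencing was paired-end. The authors deposited 1 FPKM value per gene and library. The submitters' processing notes name Cufflinks 2.1.1, Cuffdiff and the genome build mm10, while the aligner, the annotation and the use of strand are not given in the sources used here. Genotypes and mouse numbers came from the labels. Mice were separate animals, so the spread between replicates holds biological and technical variation.

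Genes whose FPKM averaged over 1 in either genotype entered limma 3.58.1 in R 4.3.3 on log2(FPKM + 1), fitted to genotype alone with a trended prior. Tests were two-sided, p-values were adjusted by Benjamini-Hochberg over all 12877 genes, and the threshold was 0.05. The fit was tested on simulated data. Depth was estimated from the lowest FPKM of genes with 1 GENCODE M21 transcript of at least 1500 nt and gave 12200000 to 16300000 fragments per library, which is approximate. The search gave 4 candidate values for 1 fragment in the library labelled Sox4-MKO mouse 2 and 1 or 2 in the others. The lowest was used in each, which gives the highest depth. Intervals from it are exact Poisson at 95% and cover counting error only. Coordinates are those of GRCm38 for the same symbol, and upstream windows are from RefSeq. The fit was repeated with a replicate block, without each library in turn, with 3 other scalings, a pseudocount of 0.1, other FPKM limits and no trended prior.

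The text names all 10 members, every other Sox gene, Ebf2 and Ucp1, and the 5 genes closest to the profile of Sox4. From other lists the rule was at most 4 genes with the highest mean FPKM, or a gene on which a result turns. More than that were named from the cartilage and tendon, blood endothelium and target lists, some after their values were seen. The members and lists were chosen with earlier results of these data known. Plots were made in matplotlib 3.10.9. Neither the ChIP sequencing nor the PCR was analysed here.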

Additional observations from a re-analysis of the deposited data

How the results depend on the processing

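Of the 13 alternatives, those that leave out 1 library changed most, and they leave a genotype with 1 mouse that is assumed to vary like the other. The cause of the changes was not tested. Without 1 library the log2 fold change of Sox4 ran from -0.32 to 0.71 and was negative without Sox4f/f mouse 2 (-0.07) and without the library labelled Sox4-MKO mouse 2 (-0.32). Sox5 ran from -0.055 (without Sox4f/f mouse 2) to 0.33, and Sox6 from -0.36 to 0.12 (without the library labelled Sox4-MKO mouse 2). The number of members called at an unadjusted p under 0.05 (limma), 1 with all libraries, was 1 to 2 without 1 library, and the number whose genotypes did not overlap, 4 with all libraries, was 5 to 7, where fewer samples make separation easier. Over all genes the calls numbered 849 to 2394 instead of 2090 (849 without Sox4f/f mouse 1 and 1070 without mouse 2), and 0 to 5 genes had an adjusted p under 0.05.

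With a common median and with quantile normalization 2 members were called, Sox18 and Sox7. A replicate block gave the same 2 members and 1908 calls over all genes. Mice with the same number did not deviate together (r = -0.01 over 12877 genes), so the numbers were not taken to pair them. Sox18 was called in 12 of 14 fits, Sox7 in 4 and Sox4 in 0 of 13. Sox4, Sox5 and Sox9 did not pass an averaged FPKM limit of 5, and Sox11 and Sox12 gave values only with a limit of 0.1 or none. At the estimated depth Sox11 rested on 11 to 44 fragments, which limits what can be seen of it.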
